A study of Rattus norvegicus with 6 samples.

Results

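Reference genes are the transcripts against which the level of other genes is expressed in quantitative PCR and on blots, on the premise that they hold the same level in every condition compared. In rat tenocytes, 4 identifiers of that kind were examined, given as Gapdh (ENSRNOG00000018630), Actb (ENSRNOG00000034254), B2m (ENSRNOG00000017123) and Hprt1 (ENSRNOG00000031367). They were taken by their identifiers and not by their values, and all 4 were present among the 19133 genes of the deposited table. Tenocytes are the resident cells of tendon. They were isolated from Achilles tendons of Sprague–Dawley rats and kept in complete medium for 24 h, followed by fresh complete medium alone (control group, 3 libraries) or with 50 ng/mL of the proinflammatory cytokine IL−1β for a further 24 h (IL−1β group, 3 libraries). The study describes its data as coming from independent experiments, and whether the libraries of a group came from separate animals is not given in the sources used here. The p-values measure the spread between these libraries. β-Actin, the product of Actb, was the internal control of the study's quantitative PCR and one of the antibodies of its blots.

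The genes chosen belong to separate cellular functions. Gapdh encodes an enzyme of glycolysis, which converts glyceraldehyde 3-phosphate. Actb encodes the cytoplasmic β-actin of the cytoskeleton and of stress fibres. B2m encodes β2-microglobulin, the light chain that stabilises the class I histocompatibility molecules on the cell surface and whose gene is a known target of interferon and NFκB signalling. Hprt1 encodes the purine salvage enzyme that recycles hypoxanthine and guanine, and it is active in nearly all cell types. The pairing of these symbols with the identifiers came with the choice of the genes. It could not be looked up, since the deposited table lists identifiers only and the RefSeq gene table used here (GRCr8) holds 0 Ensembl identifiers. The genome build behind the deposited table is not given in the sources used here, so no gene coordinates are given for it. Without symbols, defining tenocyte markers and markers of other cell types were not checked, nor were the other genes of glycolysis, of the cytoskeleton, of antigen presentation and of purine metabolism.

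The promoters of Gapdh and B2m are shown because these were the tested genes whose levels rose. The RefSeq promoter table (GRCr8) was matched for 3 of the 4 symbols, the exception being Actb. Printed are the 250 bases before the start site, 5′ to 3′ on the coding strand. Capitals mark every match, on either strand, to 6 motifs. These are the κB consensus bound by NFκB, the core of the interferon-stimulated response element (GAAANNGAA), the TATA box searched as TATAAA, the CCAAT box, the SP1 box searched as GGGCGG, and the core of the hypoxia response element, ACGTG. No matches overlapped. The B2m sequence lies at chr3:129549080-129549329 on the plus strand and the Gapdh sequence at chr4:159652468-159652717 on the minus strand. RefSeq's gene spans, which also cover predicted transcripts, begin upstream of both start sites, so part of the B2m window and the whole Gapdh window lie inside them.
B2m: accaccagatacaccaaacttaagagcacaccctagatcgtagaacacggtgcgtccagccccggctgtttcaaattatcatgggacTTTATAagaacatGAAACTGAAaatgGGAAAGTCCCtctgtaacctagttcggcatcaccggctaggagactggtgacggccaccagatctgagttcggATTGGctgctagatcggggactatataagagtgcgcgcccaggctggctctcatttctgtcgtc
Gapdh: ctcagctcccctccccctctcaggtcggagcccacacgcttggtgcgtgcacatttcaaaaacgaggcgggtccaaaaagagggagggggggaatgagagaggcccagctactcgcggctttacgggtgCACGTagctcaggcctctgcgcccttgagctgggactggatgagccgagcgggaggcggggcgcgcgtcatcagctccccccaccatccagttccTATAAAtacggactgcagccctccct
The B2m window held 1 κB match at position −137, on the reverse strand, and 1 response element core at −150, on the printed strand. Both positions are counted back from the start site. The same window also held 1 TATAAA at −163 and 1 CCAAT at −64, each on the reverse strand. Of all 33469 promoters of the same length, 6.3% held the κB motif, 8.1% the response element core and 0.39% both. The TATA box was found in 12.9% and the CCAAT box in 34.0% of them. The Gapdh window held 1 TATAAA at −26 and, on the reverse strand, 1 ACGTG at −121, which 16.6% of all promoters hold, and 0 matches to the κB motif or the response element core. The SP1 box, found in 30.5% of all promoters, had 0 matches in either window. The promoter matched to the symbol Hprt1 is not printed. It held 5 SP1 boxes and 0 matches to the κB motif or the response element core. A match describes the letters only, and binding was not measured in these libraries.

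The values are FPKM, fragments per length of gene and relative to all fragments of the library, which allow levels to be compared between genes. The low values step in whole multiples of 1 read, and whole reads were recovered for all 19133 genes within 0.001 read. The libraries held between 36507694 and 43100058 recovered reads, and the depths of the groups overlapped. The comparison used FPKM scaled by size factors between 0.972 and 1.036, log2 after a pseudocount of 0.1, and limma over the 12408 genes that reached 0.5 FPKM in 3 or more libraries. Of the 4 identifiers, 3 passed this filter and ENSRNOG00000031367 did not. FPKM are shares of a library, so less RNA of a gene in each cell and fewer cells that express it cannot be told apart, and the amount of RNA per cell was not measured.

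The 3 tested genes differed between the groups, and not in the same direction. Gapdh and B2m were higher and Actb was lower with IL−1β (the fall of Actb not passing the test under quantile normalization). With size factors no library of one group overlapped with the other group in any of them, whereas under quantile normalization the groups of Actb did overlap. The order of the levels was the same in all 6 libraries, with Actb above Gapdh, Gapdh above B2m and B2m above ENSRNOG00000031367. No pair of neighbours in this order overlapped.

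Actb, the most abundant of the 4, had 5893, 5540 and 5489 FPKM in control libraries 1, 2 and 3 and 3808, 4599 and 4464 FPKM in IL−1β libraries 1, 2 and 3. All IL−1β libraries lay below all control libraries, and IL−1β library 1 lay lowest. The control mean of 5641 ± 220 FPKM stood against 4290 ± 423 FPKM with IL−1β (SD, n = 3 each). The log2 fold change was −0.46 (standard error 0.08, 95% interval −0.65 to −0.26, adjusted p = 0.0045 from limma), which is 0.729 times the control level (0.635 to 0.835). Actb alone held 0.789% ± 0.031 of the recovered reads of the control libraries and 0.600% ± 0.059 of those of the IL−1β libraries. Its 197468 to 320398 reads per library put the counting error at 0.18% to 0.23%. The SD between libraries of 1 group was larger, at 3.90% of the control mean and 9.86% of the IL−1β mean. Under quantile normalization the fall of Actb did not pass the threshold (log2 fold change −0.15, adjusted p = 0.25). That method sets each value by its rank, and Actb ranked 8 to 10 in the control libraries and 9 to 12 in the IL−1β libraries.

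Gapdh had 1134, 1072 and 1157 FPKM in the control libraries and 1569, 1560 and 1811 FPKM in the IL−1β libraries. The lowest IL−1β library lay above the highest control library, and IL−1β library 3 lay highest. The mean went from 1121 ± 44.3 FPKM to 1647 ± 143 FPKM with IL−1β (SD, n = 3 each). The log2 fold change was 0.49 (standard error 0.07, 95% interval 0.33 to 0.66, adjusted p = 0.0012 from limma), a rise of 1.41 times (1.26 to 1.58). Gapdh held between 39323 and 67556 reads per library, with a counting error of 0.38% to 0.50%. The SD between libraries was 3.95% of the control mean and 8.67% of the IL−1β mean.

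B2m had 327, 318 and 312 FPKM in the control libraries and 631, 594 and 563 FPKM in the IL−1β libraries. The groups did not overlap, and the control libraries lay close together. The mean went from 319 ± 7.61 FPKM to 596 ± 34.0 FPKM with IL−1β (SD, n = 3 each). The log2 fold change was 0.84 (standard error 0.06, 95% interval 0.70 to 0.99, adjusted p = 4.2e-05 from limma), a rise of 1.79 times (1.62 to 1.98). B2m ranked 190 to 208 among all genes in the control libraries and 103 to 117 in the IL−1β libraries, on between 21252 and 46939 reads.

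**Figure D1:**
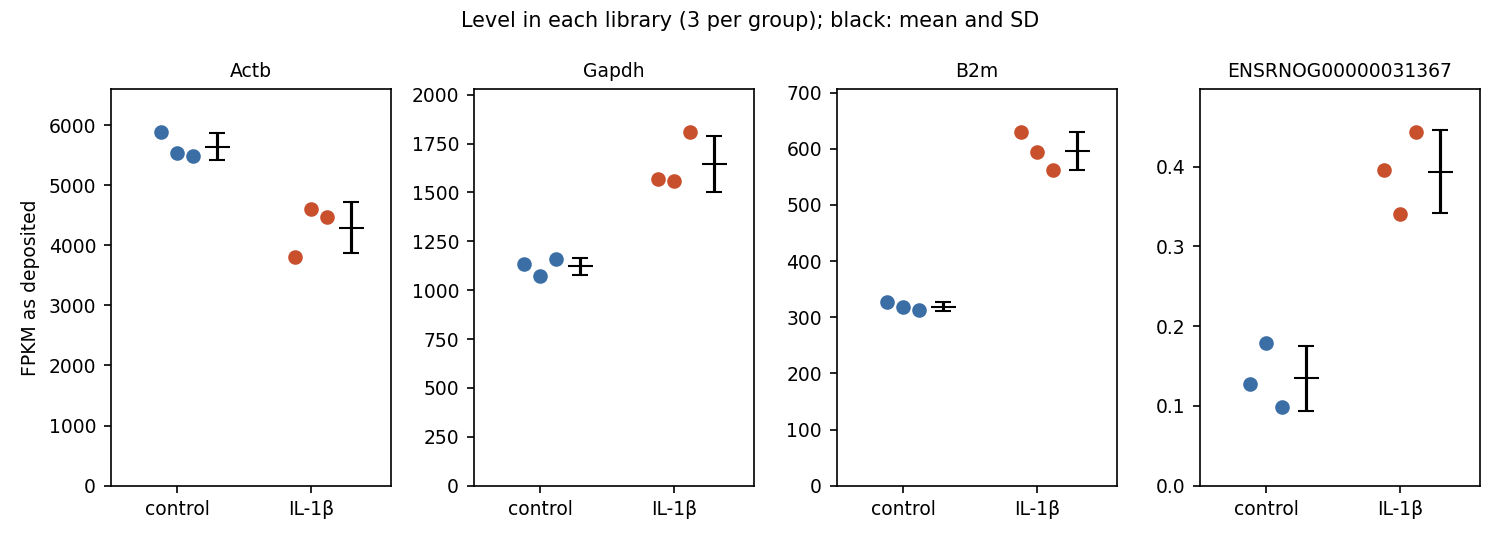
Level of each gene in FPKM as deposited, on axes that start at 0, for 3 control (blue) and 3 IL−1β libraries (red), drawn from replicate 1 to 3 from left to right, with the mean and SD in black. Actb falls from a mean of 5641 to 4290 FPKM, Gapdh and B2m rise from 1121 to 1647 and from 319 to 596 FPKM, and ENSRNOG00000031367 stays below 0.5 FPKM in every library.

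ENSRNOG00000031367 went against its symbol. It had 0.127, 0.179 and 0.098 FPKM in the control libraries and 0.396, 0.340 and 0.444 FPKM in the IL−1β libraries, on 6, 8 and 5 and on 18, 18 and 20 reads. In 0 of the 6 libraries did it reach 0.5 FPKM, and 68.7% of all genes in the table had a higher mean. This is far from the level of a gene that nearly all cells use, so this row is called by its identifier and not by the symbol Hprt1 in what follows. Its level lay above the 0.057 to 0.067 FPKM that 3 reads give on its implied length of 1223 bases. The reads of the IL−1β group were 2.95 times those of the control group relative to depth (56 against 19 reads, exact 95% interval 1.72 to 5.25, which covers counting error only). The groups did not overlap. With no filter on low values its log2 fold change was 1.04 (adjusted p = 0.014 from limma), and the size of this difference depended on the pseudocount (0.28 with a pseudocount of 1 and 1.46 with 0.01). Values of Hprt1 under another identifier were not analysed here.

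The levels of Gapdh and Actb carry a further limit. Gapdh and Actb have many processed pseudogenes in rodent genomes, Actb also has the closely similar Actg1, and the handling of reads that map to several places and the strand setting are not given in the sources used here. Reads that belong to such copies could be counted in or left out of Gapdh and Actb. The lengths implied by the reads were 1002 bases for Gapdh, 1395 for Actb and 1827 for B2m.

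Read against all tested genes and with size factors, the 3 reference genes changed more than most genes did. The median absolute log2 fold change of the 12408 genes was 0.20, and 77.1% of them changed less than Gapdh, 75.1% less than Actb and 87.6% less than B2m. Under quantile normalization the change of Actb was −0.15, and its place among all tested genes was not computed with that scaling. Of the 3 genes, 0 passed both thresholds of the study (an adjusted p below 0.05 together with a log2 difference past 1 in either direction), which 5.37% of all tested genes passed upward and 3.32% downward. By the adjusted p alone, 2 of the 3 (Gapdh and B2m) were called higher and 1 (Actb) lower, where 19.3% of all tested genes were called higher and 19.1% lower. With the deposited scaling, 61.1% of the calls by the adjusted p were higher, against 50.2% with size factors, and Gapdh and B2m still rose and Actb still fell. Groups that did not overlap were found for all 4 identifiers (the untested one included), 3 of them upward and 1 downward, beside 25.5% of all tested genes upward and 25.9% downward. Under quantile normalization this held for 3 of the 4, the exception being Actb. Permuting 3 libraries against 3 exactly allows no p below 0.10, so the calls rest on limma's estimate of the spread.

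A gene was counted as stable where the whole 95% interval of its log2 fold change lay within a margin of 0.5 in either direction. This held for 0 of the 3 tested reference genes (1 of 3, Actb, under quantile normalization) and for 56.2% of all tested genes. Among the 720 genes with a mean of at least 100 FPKM, the range in which the 3 genes lie, it held for 70.7%. The interval of Gapdh crossed the upper margin, that of Actb crossed the lower one, and that of B2m lay wholly above the margin. Within the control group the 3 genes varied less between libraries than the median gene, and within the IL−1β group they did not. That median covers all tested genes, many of them far less abundant, and was not taken among abundant genes alone. Their SD of log2 values in the control group was 0.060 (Gapdh), 0.071 (Actb) and 0.049 (B2m), against a median of 0.085 over all tested genes, and in the IL−1β group 0.110, 0.128 and 0.102, against a median of 0.102. Over all 6 libraries together it was 0.282, 0.267 and 0.467, against a median of 0.171.

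**Figure D2:**
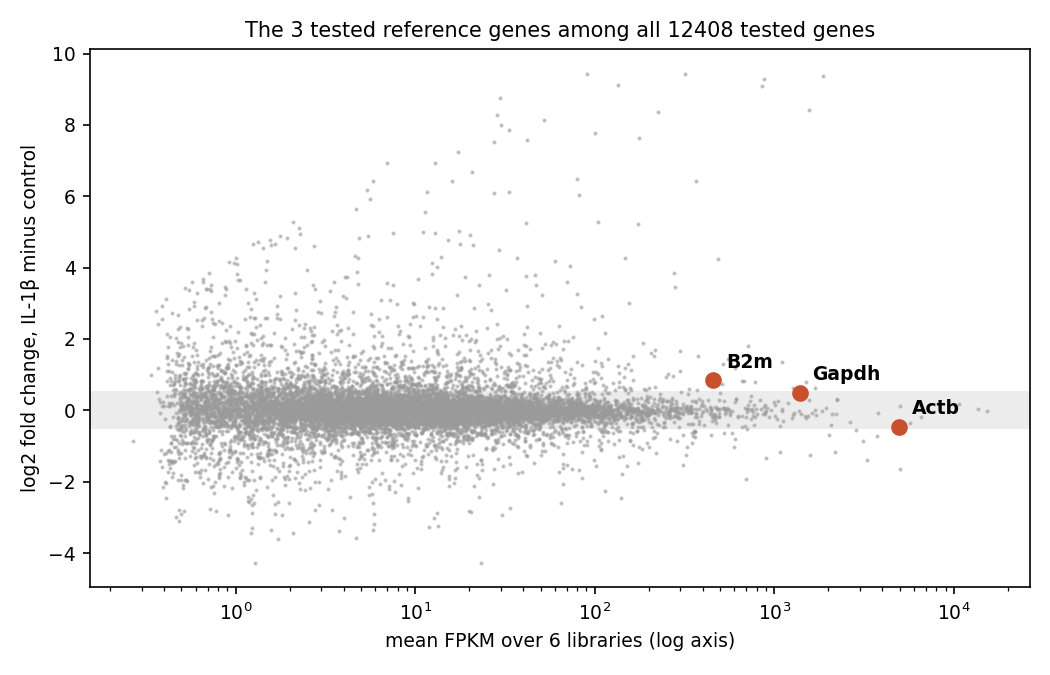
Log2 fold change of each of the 12408 tested genes (grey points) against its mean FPKM over the 6 libraries on a log axis, with the margin of 0.5 as a grey band and the 3 tested reference genes in red. B2m lies above the band at 0.84, and Gapdh at 0.49 and Actb at −0.46 lie close to its edges, among abundant genes most of which lie inside it.

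A ratio of 2 genes within a library does not depend on how libraries are scaled to each other, so the genes were also compared in pairs. In each fit, all values of a library were divided by its value of 1 reference gene, and limma was run over all 12408 genes. All genes of such a fit share the noise of their divisor, whereas limma pools the spread over genes as if they were independent. The intervals, adjusted p-values and calls of every fit relative to a gene carry this limit. All 6 pairs were compared. The ratio of Gapdh to Actb went from a control mean of 0.199 ± 0.010 to 0.386 ± 0.040 with IL−1β (SD, n = 3 each). Its log2 difference was 0.95 (95% interval 0.72 to 1.18, adjusted p = 8.9e-05 from limma), a change of 1.93 times (1.65 to 2.26). For an abundant gene, the choice between these 2 references moved the log2 fold change by 0.95, beside the threshold of 1 that the study used, and genes near the pseudocount moved by less. The ratio of Actb to B2m changed most among the 3 tested genes, from 17.7 ± 0.30 to 7.24 ± 1.04, a log2 difference of −1.30 (95% interval −1.57 to −1.03, adjusted p = 2.5e-05 from limma). This pair had been the tightest in the control group, where the SD of its log2 ratio was 0.024, against 0.218 in the IL−1β group.

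Gapdh and B2m both rose, and among the pairs of tested genes their ratio changed least, from 3.52 ± 0.17 to 2.78 ± 0.39 (log2 difference −0.35, 95% interval −0.60 to −0.10, adjusted p = 0.015 from limma). This call was lost without control replicate 3 (adjusted p = 0.054) and without IL−1β replicate 2 (adjusted p = 0.053). The pairs with ENSRNOG00000031367 had wide intervals, and it held 5 to 20 reads per library. Relative to it the log2 difference was −1.03 for Gapdh (95% interval −1.66 to −0.41), −1.98 for Actb (−2.61 to −1.36) and −0.69 for B2m (−1.31 to −0.06). Of these, the difference of B2m (adjusted p = 0.034 from limma) was lost in 7 of 12 alternatives. The standard error was 0.318 in each of the 3 pairs, and the limit of a shared divisor given above weighs most here. Their intervals do not measure the spread of each ratio alone and may be too narrow.

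**Figure D3:**
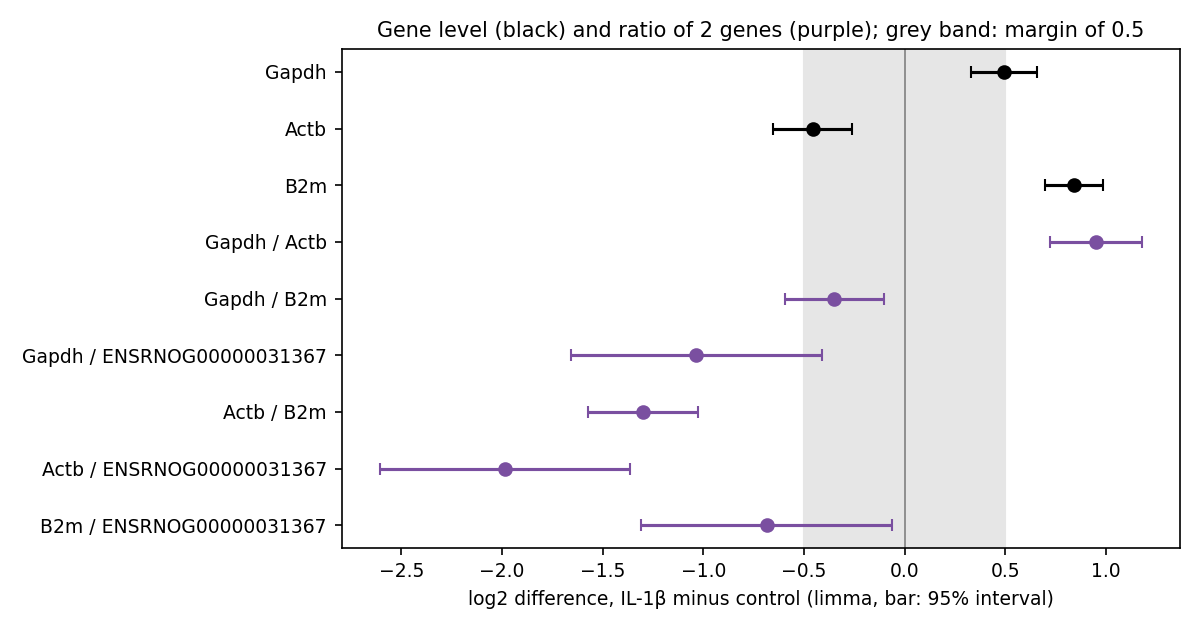
Log2 difference between the IL−1β and the control group with its 95% interval from limma, for the level of each tested gene after size-factor scaling (black) and for the ratio of each pair (purple), with the margin of 0.5 as a grey band. No interval lies wholly inside the band, and the ratio of Gapdh to Actb lies at 0.95 where each gene alone lies near 0.5 in size.

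Division by a reference gene moved the calls among the other genes. Each division shifts all abundant genes by the reference gene's own change with its sign reversed, so the counts show the size of the changes above on the scale of calls and are no further evidence of them. With size factors, 666 genes were higher and 412 lower with IL−1β past both thresholds, and the median change over the tested genes was 0.0007 on the log2 scale. Relative to Gapdh, 393 genes were higher and 1142 lower, with a median of −0.48. Relative to Actb, the order turned, with 1322 genes higher and 211 lower and a median of 0.45. Relative to B2m, 303 genes were higher and 3255 lower, with a median of −0.83. The share of higher genes among the calls was 61.8% with size factors, 25.6% relative to Gapdh, 86.2% relative to Actb and 8.52% relative to B2m. By the adjusted p alone, 38.4% of the tested genes were called with size factors, 75.3% relative to Gapdh, 72.2% relative to Actb and 88.5% relative to B2m. ENSRNOG00000031367 as the reference gave calls for 88.0% of the genes (205 higher and 10711 lower), with 5 to 20 reads as the divisor of each library. With a pseudocount of 1 the genes past both thresholds were fewer, 963 in place of 1535 relative to Gapdh, 964 in place of 1533 relative to Actb and 2165 in place of 3558 relative to B2m, as they were with size factors (697 in place of 1078).

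Some of these counts moved by over 1.5 times when 1 library was left out. The filter still asked for 0.5 FPKM in 3 libraries. A gene that reached it only in the group that lost a library was therefore no longer tested. How much of the moves came from this was not tested, so they are not read as dependence on a single library. In every fit relative to 1 gene with 1 library left out, lower genes outnumbered higher ones, except relative to Actb, where higher genes outnumbered lower ones in every such fit. Relative to Gapdh, the 393 higher genes became 231, 239 and 261 without IL−1β replicate 1, 2 and 3. They became 407, 409 and 396 without control replicate 1, 2 and 3. Relative to B2m, the 303 higher genes became 175, 170 and 160 in the same order. Relative to ENSRNOG00000031367, the 205 higher genes became 99, 96 and 101. Relative to Actb, the 211 lower genes became 136 without control replicate 3. With size factors, the higher genes ranged from 460 to 675 and the lower genes from 307 to 432 when single libraries were left out.

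A geometric mean of several references gave results that depended on which genes were in it. With all 4 identifiers, 363 genes were higher and 1481 lower past both thresholds, and the 363 became 209, 225 and 239 without IL−1β replicate 1, 2 and 3. With Gapdh, Actb and B2m, 468 were higher and 723 lower, and the median of all tested genes was −0.29. The 468 became 289 without IL−1β replicate 1. The means of 3 and of 2 genes were computed after the values had been seen. Gapdh with Actb, whose changes were of opposite sign and nearly the same size, gave 644 higher and 427 lower genes and a median of −0.02. Without IL−1β replicate 1, lower genes outnumbered higher ones (416 higher and 459 lower). Without control replicate 1, 2 and 3 the higher genes numbered 625, 657 and 661. Gapdh with B2m gave 344 higher and 1772 lower genes, and Actb with B2m gave 526 higher and 603 lower. The 344 became 195, 208 and 205 without IL−1β replicate 1, 2 and 3, and the 526 became 343 without IL−1β replicate 1. For Actb with B2m, higher genes outnumbered lower ones without control replicate 2 (523 and 491) and without control replicate 3 (552 and 470). In these fits too, genes that reached 0.5 FPKM only in the group that lost a library were not tested. The changes of the majority are therefore not read as dependence on a single library.

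**Figure D4:**
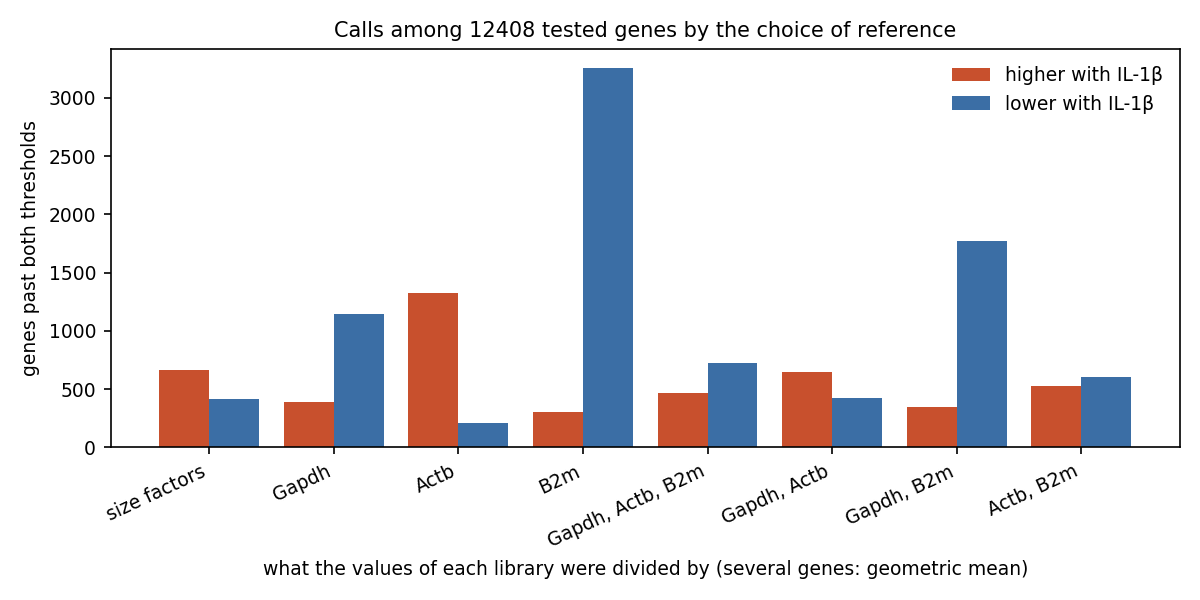
Number of tested genes past both thresholds, higher (red) or lower (blue) with IL−1β, on an axis that starts at 0, by what the values of each library were divided by. Higher genes outnumber lower ones with size factors (666 and 412), with Actb (1322 and 211) and with Gapdh and Actb together (644 and 427), and lower genes outnumber higher ones in the other 5 sets of bars drawn, for example with B2m (303 and 3255). Division by ENSRNOG00000031367 and by the mean of all 4 is not drawn.

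The genes whose pattern over the 6 libraries was nearest to that of the strongest tested rise and of the only fall are given by identifier, since their symbols could not be looked up. Likeness was the root mean square distance of the log2 values, each centred on its own mean over the 6 libraries. Nearest to B2m was ENSRNOG00000013160, at a distance of 0.035, with a mean that went from 13.2 ± 0.48 FPKM to 24.8 ± 0.52 FPKM with IL−1β (SD, n = 3 each). Nearest to Actb was ENSRNOG00000018109, at a distance of 0.011, with a mean that went from 199 ± 9.08 FPKM to 150 ± 13.7 FPKM. Within a distance of 0.1 there were 105 genes for B2m, 416 for Actb and 221 for Gapdh.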

How the data were processed

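Polyadenylated RNA of 6 libraries was sequenced as paired-end reads. The authors deposited FPKM values for 19133 genes, 1 column per library, made with a company's in-house pipeline. HISAT2 and featureCounts are named in the submitters' processing notes, whereas versions, genome build, annotation and strand setting are not given in the sources used here. Reads were recovered from the steps of genes under 0.3 FPKM and the condition of whole gene lengths (Python 3.11.15, numpy 2.4.6, pandas 2.3.3, scipy 1.17.1). Size factors from the median-of-ratios method scaled the FPKM values, which were fitted with limma 3.58.1 in R 4.3.3 (log2, pseudocount 0.1, intensity trend, two-sided, Benjamini-Hochberg over all 12408 tested genes). For values relative to a gene, that gene's value replaced the size factor. Both steps were tested on simulated data.

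The reference genes and lists were chosen with earlier results of these data known. Genes named are these 4 and, by identifier, the gene nearest in pattern to the tested gene with the highest and to that with the lowest fold change. The lists of other reference genes, pathways and cell type markers need symbols and were not run. Alternatives were pseudocounts of 1 and 0.01, no filter, a filter of 1 FPKM, the deposited scaling, quantile normalization, TPM scaling, no trend, the replicate block, each library left out and limma-voom on recovered reads. Library sizes for limma-voom used median-of-ratios factors in place of the planned TMM factors. Figures were drawn with matplotlib 3.10.9.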

Additional observations from a re-analysis of the deposited data

How the results depend on the processing

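The log2 fold changes of Gapdh, Actb and B2m and the ratios among them kept their direction in all 84 alternatives and their side of the adjusted p threshold in 81. Most of the 84 could not have turned a direction. Pseudocounts, filters, the trend and the block leave the differences of such abundant genes nearly unchanged. Groups that do not overlap also keep their direction with 1 library left out. Only the other scalings and limma-voom, run for the 3 genes and not for the ratios, could have turned it. The exceptions were Actb under quantile normalization (−0.15) and the ratio of Gapdh to B2m, which ranged from −0.46 to −0.27 when single libraries were left out. Under quantile normalization the interval of 1 reference gene (Actb) lay inside the margin and its groups overlapped, so that 3 of the 4 identifiers had groups apart. The difference of ENSRNOG00000031367 was 0.28 and 1.46 under pseudocounts of 1 and 0.01, which follows from its values being of the size of the pseudocount. Its pair with B2m was lost with no filter, with the replicate block and without a trend (−0.69 each) and ranged from −0.92 to −0.49 with 1 library left out. With a pseudocount of 1 the genes past both thresholds numbered 963 relative to Gapdh, 964 relative to Actb, 2165 relative to B2m and 1124 relative to all 4, in place of 1535, 1533, 3558 and 1844, and 697 with size factors in place of 1078, and the cause was not tested. The alternatives for the counts with size factors, and the fits of the means below with 1 library left out, were chosen after seeing the data. In place of these 1844, geometric means of fewer genes, chosen after seeing the data, gave 1191 (Gapdh, Actb and B2m), 1071 (Gapdh and Actb), 2116 (Gapdh and B2m) and 1129 (Actb and B2m). Libraries with the same number showed no clear pairing. Their deviations correlated at 0.094, 0.021 and 0.034, and those of libraries with different numbers at −0.087 to 0.061. The replicate block gave 0.49 for Gapdh, −0.46 for Actb and 0.84 for B2m, which it cannot change in a balanced design. The adjusted p from limma with the block was 0.0025 for Gapdh, 0.017 for Actb and 0.00019 for B2m. The block changed no other call of a fold change or ratio. It moved the counts of genes with size factors, relative to each single identifier and relative to all 4 by less than 1.5 times. For the geometric means of fewer genes the block was not run. Among the 4 identifiers, depth limits ENSRNOG00000031367, with 5 to 20 reads per library.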
